A study of Mus musculus with 48 samples.

Results

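Lung macrophages were the cells that carried the authors' label Macrophages and came from the lung of male DBA1/J mice, and they numbered 677 of 814 annotated lung cells and of 12096 annotated cells in all. Single-cell RNA had been counted with Seq-Well, in which single cells settle into microwells with barcoded beads and each captured transcript carries a unique molecular identifier (UMI) by which it is counted. The comparison was between 6 mice with collagen-induced arthritis (CIA), which gave 393 of these cells, and 4 healthy mice, which gave 284. The CIA mice had been injected with 100 µg of bovine collagen II in Complete Freund's Adjuvant and boosted on day 20 with collagen in incomplete adjuvant, whereas the healthy mice had been injected with phosphate-buffered saline. Adjuvant, collagen, and arthritis can therefore not be told apart as sources of a difference. Mice are named by the sample titles, H3, H4, H6, and H7 for healthy and S1, S2, S3, S5, S6, and S8 for CIA mice. The titles of H3, S1, S2, and S3 carry the prefix 2CIA and the others the prefix CIA, called the experiment here. S1, S2, and S3 had an arthritis score of 8 and the other CIA mice scores from 2 to 5, so that score and experiment cannot be told apart among the CIA mice. All organs had been frozen before digestion and red cells lysed, and no sort of the cells is described.

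The lung holds macrophages of different origin. Alveolar macrophages live in the air spaces, maintain themselves locally, clear surfactant lipids, and are known in the mouse for *Chil3*, *Ear2*, *Fabp1*, *Lpl*, and *Spp1*. Classical monocytes circulate in the blood, carry *Ly6c2*, *Plac8*, and *Ms4a6c*, and can enter the lung and become macrophages. Macrophages show peptides to T cells on major histocompatibility complex (MHC) class II molecules and answer interferons with a broad set of interferon-stimulated genes.

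The label was checked against 5 macrophage genes, and it held for most but not all of the cells. Lysozyme *Lyz2* was at 19585 ± 1437 counts per 1000000 UMIs (CPM) in healthy mice (SD, n = 4) and 14489 ± 3137 CPM in CIA mice (SD, n = 6), and the cysteine protease *Ctss* at 5490 ± 455 and 4391 ± 581 CPM. Neither passed the test described below (adjusted p = 0.200 and 0.209), although *Lyz2* did in another setting. *Chil3* and *Ear2* were lower in CIA mice but present in every mouse. *Cd68* did not pass the filter on low counts and was not tested. Its levels overlapped, at 172 to 375 CPM in healthy and 52.6 to 348 CPM in CIA mice. *Marco*, a scavenger receptor of alveolar macrophages, was at 0 UMIs in all 10 mice. However, 53 of the 677 cells (7.83%), with 10.8% of the UMIs, had over 5% of their UMIs on a list of 12 lung epithelial genes led by surfactant protein *Sftpc* and club cell secretoglobin *Scgb1a1*. In these 53 cells *Ctss* was at 387 CPM and *Ear2* at 0 UMIs, while *Lyz2*, which some lung epithelial cells also express, was at 20520.4 CPM. Only 8 cells lay between 2% and 10%, so the limit of 5%, which was set after the data were seen, split the cells into distinct groups. No epithelial type was among the labels of the study. The share of such cells was 12.98 ± 9.51% in healthy mice (SD, n = 4) and 7.45 ± 4.71% in CIA mice (SD, n = 6), with p = 0.276 in a two-sided exact permutation test over mice. The summed level of the epithelial list in all labelled macrophages ranged from 25673 to 129383 CPM in healthy and from 2334 to 61179 CPM in CIA mice, and from 1071 to 15959 and from 449 to 6365 CPM once these cells were left out. Of the 4 epithelial genes that passed the filter on low counts none was called between the groups, with a median log2 fold change of -0.74. In a fit of all genes with a UMI, however, *Scgb1a1* and *Scgb3a1* were called lower in CIA mice, and 1 of the 12 genes of the list had a higher mean in CIA mice. Results are also given without these cells where they changed.

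The mice differed in cell number and depth. They gave 29 to 148 lung macrophages and 17240 to 103883 UMIs each, with a median of 583 UMIs and 368 genes per cell. Macrophages made up 82.3 ± 5.98% of the annotated lung cells of healthy mice (SD, n = 4) and 84.7 ± 7.47% of those of CIA mice (SD, n = 6), a difference not beyond the spread (p = 0.610, two-sided exact permutation test). The median UMI count per macrophage was 608 ± 45.6 in healthy and 557 ± 22.7 in CIA mice (p = 0.0762, two-sided exact permutation test). In the same exact test this difference had p = 0.0476 without the epithelial cells and p = 0.0190 with the mean over cells in place of the median. No barcode of a lung macrophage was found in more than 1 lung library. At this depth 538 genes passed the filter on low counts, and they held 58.3% of the UMIs. The filter also keeps a gene that is high in 1 group alone. Genes below it were read from a fit of all 16555 genes with a UMI, in which 32 passed (19 higher, 13 lower) and 13 of them were among those called after the filter. In that fit *Scgb1a1* had an SE of 0.32, against 1.07 after the filter (adjusted p = 0.265), although its levels spread widely, at 42246 ± 36234 CPM in healthy (SD, n = 4) and 9402 ± 13912 CPM in CIA mice (SD, n = 6).

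Lung macrophages of CIA mice had more mRNA of the monocyte genes *Ly6c2*, *Plac8*, and *Ms4a6c*, the interferon-stimulated genes *Ifi27l2a* and *Ifitm3*, and the receptor *Clec4e*, and less of 6 genes of alveolar macrophages and 3 of MHC class II. At an adjusted p below 0.05 in edgeR's quasi-likelihood test, 20 genes were higher (3.72%) and 15 lower (2.79%) in CIA mice, 6.51% of the 538 genes tested. With plain library sizes in place of the TMM factors, 23 were higher and 9 lower. The CPM of CIA and healthy mice did not overlap for 15 of the 20 higher and 7 of the 15 lower genes, against 3.53% and 2.6% of all genes tested (6.13% in both directions). Without the epithelial cells 37 of 447 genes passed (8.28%), 21 higher (4.7%) and 16 lower (3.58%), and they held 33 of the 35 genes while the other 2, *Gm15564* and *Cd302*, were no longer tested. Among the 4 genes that passed there alone were *Lyz2* (log2 fold change -0.65, adjusted p = 0.0154), *Cd14*, and *Eif5b*. The direction of the mean was the same within both experiments for all 35 genes, although experiment 2CIA has 1 healthy mouse and gives no test. The 35 genes were called with these same mice, so this agreement is not independent of the call and is no replication. Within experiment CIA, with 3 mice a group, 4 of 453 genes passed (0.883%), namely *Ifi27l2a*, *Clec4e*, *S100a8*, and *Plac8*. With the experiment as a term in the fit, 29 of the 35 genes passed.

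**Figure D1:**
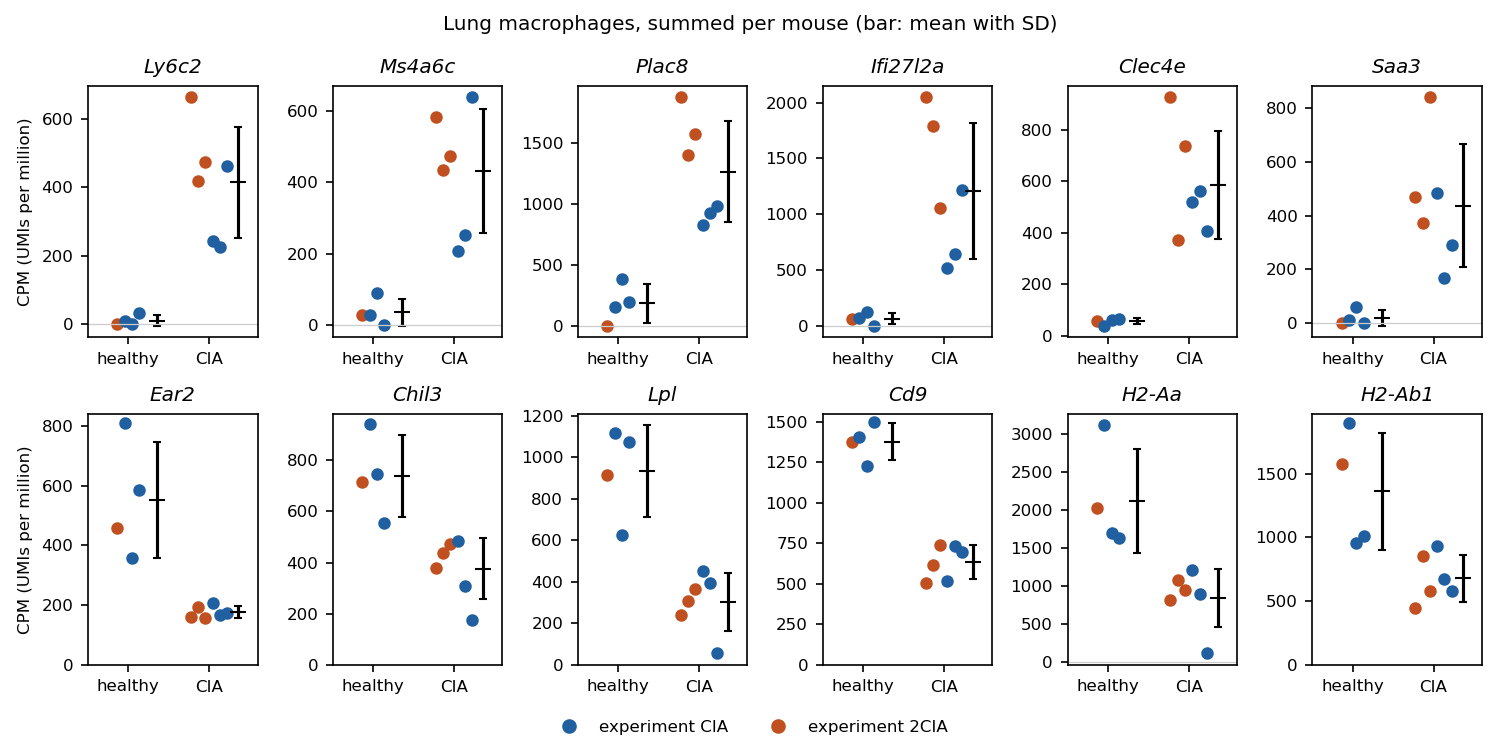
CPM of 12 called genes in lung macrophages summed per mouse, with 1 panel per gene, 1 point per mouse (4 healthy, 6 CIA) coloured by experiment, and the mean with its SD beside the points. In the upper row every CIA mouse lies above every healthy mouse, as for *Ly6c2* with 225 to 664 CPM against 0 to 32.6 CPM, and in the lower row every CIA mouse lies below.

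Of the 15 genes of the monocyte list, all were detected, 3 passed the filter, and these 3 were higher in CIA mice with a median log2 fold change of 3.44 against 0.02 over all genes tested. All 3 were low in healthy mice and passed the filter through the CIA mice. Their shared direction and the median therefore follow in part from the filter and give no test of the list. *Ly6c2*, which encodes the surface antigen that defines classical monocytes (chromosome 15, 75108158 to 75111970, GRCm38), was at 0, 9.63, 0, and 32.6 CPM in H3, H4, H6, and H7. In the CIA mice it ranged from 225 CPM in S6 to 664 CPM in S1, with a median of 442 CPM. No CIA mouse overlapped the healthy mice, in which only 2 UMIs of *Ly6c2* were counted against 116 in CIA mice, and the ratio of the pooled levels was 47.1 (95% exact interval 12.7 to 393, counting error only). The fitted log2 fold change was 5.00 (SE 0.62, adjusted p = 6.41e-05). *Plac8*, a gene abundant in monocytes and granulocytes, was at 0, 154, 388, and 195 CPM in the healthy mice and from 832 to 1876 CPM in the CIA mice, which was a log2 fold change of 2.75 (SE 0.44, adjusted p = 5.24e-04). *Ms4a6c*, which encodes a membrane protein of monocytes, was at 28.7, 28.9, 89.5, and 0 CPM in the healthy mice and from 208 to 638 CPM in the CIA mice (log2 fold change 3.44, SE 0.52, adjusted p = 3.91e-04). Here too the groups did not overlap.

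The less abundant members of the list, named after their values were seen, were read from the fit of all genes, in which 7 of the 15 passed and all 7 were higher in CIA mice. Over all 16555 genes of that fit 32 passed. The mean was higher in CIA mice for 12 of the 15, against 51.9% of all genes with a UMI, without a test. For *Scgb1a1* that fit gave a smaller SE than the fit after the filter, as given above, so its calls may be too easy. *Vcan*, which encodes the matrix proteoglycan versican, had 0 UMIs in all healthy mice and 53 UMIs in CIA mice, so that its pooled level was at least 14.3-fold higher against a floor of 3 UMIs over the healthy group. *F13a1*, the A subunit of coagulation factor XIII, had 1 UMI in healthy and 60 UMIs in CIA mice, with 69.3 to 522 CPM in the CIA mice (log2 fold change 4.99, SE 0.84, adjusted p = 2.71e-04 in the fit with joint macrophages given below). *Ms4a4c*, a relative of *Ms4a6c*, rose from 8.14 ± 16.3 CPM (SD, n = 4) to 185 ± 92.5 CPM (SD, n = 6). The summed level of the 15 genes was 401 to 806 CPM in healthy and 2253 to 5022 CPM in CIA mice, and the groups also did not overlap without the epithelial cells (435 to 844 and 2187 to 5055 CPM). In the 43 lung T cells of healthy and 35 of CIA mice, which share the libraries, the list summed to 579 and 1216 CPM. The part of RNA from other cells in the macrophage values was not tested.

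Of the interferon-stimulated genes, *Ifi27l2a* and *Ifitm3* were higher in CIA mice. Of 29 genes on the list, 26 were detected, 3 passed the filter, and these 2 were called, also in the fit of all genes. Both were low in healthy mice and passed the filter through the CIA mice. The mean was higher in CIA mice for 24 of the 26, against 51.9% of all genes with a UMI, without a test. *Ifi27l2a*, an interferon-induced gene of chromosome 12, was at 57.3, 67.4, 119, and 0 CPM in the healthy mice and had a lowest, median, and highest level of 519.8, 1135, and 2048 CPM in the CIA mice. It rose by 4.15 on the log2 scale (SE 0.49, adjusted p = 6.41e-05), and it was among the 4 genes that passed within experiment CIA (3.49, adjusted p = 0.0124). *Ifitm3*, which encodes a membrane protein that restricts the entry of viruses, was at 97.7 to 201 CPM in healthy and 281 to 1533 CPM in CIA mice (log2 fold change 2.62, SE 0.47, adjusted p = 1.70e-03). The third gene that passed the filter, the Schlafen gene *Slfn2*, had a log2 fold change of 1.06 (SE 0.47) and missed the threshold (adjusted p = 0.227). The list summed to 586 to 985 CPM in healthy and 1825.0 to 5503 CPM in CIA mice, without overlap, and to 579 and 1351 CPM in the T cells of the same lungs. A pair of genes outside the list, of interferon-induced families, was also called. *Ifi202b*, of the interferon-activated p200 family, was at 258 to 418 CPM in healthy and 758 to 1840.5 CPM in CIA mice (log2 fold change 1.67, adjusted p = 1.70e-03), and *Ifitm2* at 57.3 to 239 and 140.4 to 709.9 CPM, with an overlap (1.89, adjusted p = 0.0155, and 0.105 without H4). Of the 23 genes induced mainly by interferon gamma, 17 were detected and none passed the filter, and in the fit of all genes none was called although 11 of the 17 had a higher mean in CIA mice. By edgeR at an unadjusted p below 0.05, 100 of the 538 genes differed.

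Promoters of the called genes were searched for the interferon-stimulated response element (ISRE), the motif bound by interferon regulatory factors, which is TTTC, any 2 bases, and TTTC, searched on both strands. Promoters of 28 of the 35 called genes were in the RefSeq table of GRCm38.p6, as 250 bases before to 50 bases after each gene start. The motif was in 1131 of 32851 promoters of all genes (3.44%), in those of 21 of 333 genes tested (6.31%), and in those of 3 of 17 genes called higher and 1 of 11 called lower. These 4 are shown 5′ to 3′ on the strand of the gene because they hold the motif, with each match in capitals, up to the gene start or, for *Ifitm3*, up to the end of its last match.
Saa3: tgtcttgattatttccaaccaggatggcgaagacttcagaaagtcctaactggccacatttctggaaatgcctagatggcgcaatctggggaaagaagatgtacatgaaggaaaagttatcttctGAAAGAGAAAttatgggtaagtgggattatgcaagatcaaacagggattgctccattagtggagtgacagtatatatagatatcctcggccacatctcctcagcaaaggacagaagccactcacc
Ifitm3: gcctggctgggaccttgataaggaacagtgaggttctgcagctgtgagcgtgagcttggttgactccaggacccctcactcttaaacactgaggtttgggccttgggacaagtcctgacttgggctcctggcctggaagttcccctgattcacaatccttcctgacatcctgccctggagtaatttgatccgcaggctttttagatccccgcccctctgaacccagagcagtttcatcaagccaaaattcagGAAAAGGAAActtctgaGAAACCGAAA
Ifitm2: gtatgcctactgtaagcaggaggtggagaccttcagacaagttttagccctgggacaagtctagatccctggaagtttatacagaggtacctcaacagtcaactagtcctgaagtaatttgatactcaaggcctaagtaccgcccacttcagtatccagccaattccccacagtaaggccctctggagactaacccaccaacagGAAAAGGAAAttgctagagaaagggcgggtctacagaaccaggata
Spp1: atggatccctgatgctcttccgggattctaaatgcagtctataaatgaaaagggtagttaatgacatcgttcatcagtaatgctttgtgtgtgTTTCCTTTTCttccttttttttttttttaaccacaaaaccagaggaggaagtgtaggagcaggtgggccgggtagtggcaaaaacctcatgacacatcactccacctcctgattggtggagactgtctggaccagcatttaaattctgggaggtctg
These stretches are chr7:46715677-46715926 (minus strand), chr7:141010716-141010994 (minus strand), chr7:140955962-140956211 (minus strand), and chr5:104434861-104435110 (plus strand). *Ifitm3* held the motif 2 times, starting 2 and 19 bases after its start, and *Saa3*, *Ifitm2*, and *Spp1* held it 125, 46, and 157 bases before theirs. The match of *Spp1*, which was lower in CIA mice, lies in a run of pyrimidines. Of the other motifs searched in the same way, GAS (TTCNNNGAA, bound by STAT factors) was in the promoters of 3 of 17 higher and 1 of 11 lower genes against 8.11% of the genes tested, C/EBP (TTGCNNAA) in 4 and 5 against 12.01%, and NF-kB (GGGA, any 4 bases, and CC) in 6 and 4 against 34.2%. A match is a run of letters and does not show that a factor binds.

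Receptors and secreted proteins of innate defence also differed. *Clec4e* encodes Mincle, a C-type lectin receptor that binds the mycobacterial glycolipid trehalose dimycolate, and it was at 57.3, 38.5, 59.7, and 65.1 CPM in the healthy mice. In the CIA mice its lowest, median, and highest levels were 371, 541, and 927 CPM. The log2 fold change of *Clec4e* was 3.41 (SE 0.43, adjusted p = 6.41e-05) and 3.29 within experiment CIA (adjusted p = 0.0202). *Clec4d*, which encodes a partner receptor of Mincle, and *Cd14*, a co-receptor for lipopolysaccharide, had log2 fold changes of 1.01 (SE 0.35, adjusted p = 0.104) and 1.07 (SE 0.32, adjusted p = 0.0586) and did not pass, although *Cd14* did without the epithelial cells (adjusted p = 0.0489). In contrast, *Clec7a*, which encodes the beta-glucan receptor Dectin-1, was at 774 to 1223 CPM in healthy and 421 to 812 CPM in CIA mice and fell by 0.99 on the log2 scale (SE 0.24, adjusted p = 0.0155, and 0.105 without H4). Of the 6 scavenger and pattern receptor genes tested, 1 was thus higher, 1 lower, and 4 not called, with a median of 0.28.

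*Saa3*, an acute phase serum amyloid made by macrophages, had 3 UMIs in healthy mice (0, 9.63, 59.7, and 0 CPM) and 105 UMIs in CIA mice (168 to 841 CPM). The ratio of the pooled levels was 28.4 (95% exact interval 9.46 to 139.9, counting error only), and the fitted log2 fold change was 4.52 (SE 0.67, adjusted p = 3.91e-04). *Slpi*, a secreted inhibitor of leukocyte proteases and the other gene of the acute phase list that was tested, had a log2 fold change of 0.25 (adjusted p = 0.70). *Wfdc17*, a small secreted protein with a whey acidic protein domain, was abundant and higher in every CIA mouse, at 1987 to 3498 CPM in healthy and 3931 to 10675 CPM in CIA mice (log2 fold change 1.22, SE 0.28, adjusted p = 0.0112, and 0.0707 without H4). Of 9 chemokine and cytokine genes tested none was called higher, with a median log2 fold change of 0.81. The chemokines *Ccl2*, which draws monocytes, and *Cxcl2*, which draws neutrophils, had values of 1.23 (SE 0.39, adjusted p = 0.0753) and 0.81 (SE 0.31, adjusted p = 0.141), and osteopontin *Spp1* was called lower.

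The alarmin genes *S100a8* and *S100a9* were higher as well, and granulocyte RNA moved with them. *S100a8* was at 172, 250.3, 269, and 163 CPM in the healthy mice and at 12458, 4082, 3208, 3154, 2106, and 464 CPM in S1, S2, S3, S5, S6, and S8 (log2 fold change 4.19, SE 0.63, adjusted p = 3.91e-04). *S100a9* had a log2 fold change of 2.49 (SE 0.53, adjusted p = 7.33e-03, and 0.0576 without H4), and its level in S8, 116 CPM, lay within the range of the healthy mice. Both are genes of neutrophils and monocytes. In the lung cells with other labels *S100a8* was at 198 CPM in healthy and 10044 CPM in CIA mice. The granulocyte list of 14 genes, with 4 at 0 UMIs, summed to 358 to 631 CPM in macrophages of healthy and 580.0 to 14986 CPM in those of CIA mice. After each cell had been thinned to 400 UMIs, 44.6 ± 17.6% of the macrophages of CIA mice (SD, n = 6) kept a UMI of *S100a8*, and 40.3% of the 35 T cells did so in the same libraries, with median depths of 557 and 531 UMIs. The share in macrophages was therefore not told apart from that in cells that should lack the gene. The part of granulocyte RNA in the values of *S100a8* and *S100a9* was not tested.

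Genes of the alveolar macrophage identity list were lower in CIA mice, and *Cd9* among them also fell in joint macrophages, as given below. Of 28 genes on the list 27 were detected and 9 passed the filter, of which 6 were called lower, none was called higher, and the median log2 fold change was -1.25. *Ear2*, an eosinophil-associated ribonuclease (chromosome 14, 44102654 to 44103534), was at 459, 809, 358, and 586 CPM in H3, H4, H6, and H7, and at 158 to 208 CPM in the 6 CIA mice. The 158 CPM of S3 and the 174 CPM of S8 are 3 UMIs each. The log2 fold change of *Ear2* was -1.78 (SE 0.31, adjusted p = 1.37e-03). *Chil3*, the chitinase-like protein Ym1, was at 717, 943, 746, and 554 CPM in the healthy mice and 174 to 485 CPM in the CIA mice (-1.07, SE 0.27, adjusted p = 0.0162). *Cd9*, a tetraspanin of the cell membrane, was at 1223 to 1498 CPM in healthy and 503 to 736 CPM in CIA mice, and fell by 1.25 on the log2 scale (SE 0.22, adjusted p = 1.37e-03). None of these 3 overlapped between the groups, although *Chil3* lost the call without H4 (adjusted p = 0.105) or S1 (0.0525).

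Lipid genes of the same list fell too. *Lpl*, the lipase that releases fatty acids from lipoproteins, was at 917, 1117, 627, and 1075 CPM in the healthy mice and from 58.0 to 451 CPM in the CIA mice, without overlap (-1.72, SE 0.33, adjusted p = 3.22e-03). *Fabp1*, a fatty acid binding protein, was at 884 ± 275 CPM in healthy (SD, n = 4) and 292 ± 239 CPM in CIA mice (SD, n = 6), and S6 lay within the range of the healthy mice (-1.60, SE 0.43, adjusted p = 0.0311). *Spp1* was at 929 ± 226 and 393 ± 244 CPM (-1.31, SE 0.36, adjusted p = 0.0343). *Fabp1* and *Spp1* lost the call without H4 (adjusted p = 0.105 and 0.139), S1 (0.0815 and 0.0969), and several other mice. The chemokine *Ccl6* and the cholesterol exporter *Abcg1* did not pass, with -0.67 (SE 0.21, adjusted p = 0.0753) and -0.69 (SE 0.28, adjusted p = 0.192). Over all 8 lipid handling genes tested, 2 were lower, none was higher, and the median was -0.57. In the fit of all genes, where 32 of 16555 passed, 4 of the list were called lower, *Ear2*, *Lpl*, *Fabp1*, and *Ctsk*. *Ctsk*, the collagen-cleaving cathepsin K, was at 353 ± 135 CPM in healthy and 100.1 ± 72.8 CPM in CIA mice. Together the alveolar list summed to 9877 to 13178 CPM in healthy and 4256 to 6935 CPM in CIA mice. The interstitial macrophage list, by contrast, had no gene past the filter, summed to 423 to 1641 and 406 to 1157 CPM, and had no gene called in the fit of all genes.

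All 3 MHC class II genes that were tested were lower. *Cd74*, the invariant chain that guides class II molecules to the endosome, was at 3412, 3331, 3163, and 1368 CPM in H3, H4, H6, and H7, and at 812 to 1743 CPM in CIA mice, so that H7 lay among the CIA mice (-1.21, SE 0.24, adjusted p = 3.22e-03). *H2-Aa*, the alpha chain of the class II molecule I-A, was at 1628 to 3119 CPM in healthy and 116 to 1213 CPM in CIA mice (-1.39, SE 0.31, adjusted p = 0.0112), and *H2-Ab1*, its beta chain, at 955 to 1896 and 446 to 936 CPM (-1.12, SE 0.27, adjusted p = 0.0132). For both chains the groups did not overlap, and without H4, the deepest mouse, neither was called (adjusted p = 0.0833 and 0.105). Over the 9 genes of the list, 8 had a lower mean in CIA mice, and the summed level was 4495 to 9078 CPM in healthy and 1624 to 4367 CPM in CIA mice. The markers of B cells, which also carry class II, summed to 477 to 1069 and 91.5 to 638 CPM in the macrophages, and among them the antibody joining chain *Jchain* was called lower in the fit of all genes, while those of dendritic cells summed to at most 168 CPM in any mouse. Their part in the class II values was not tested. MHC class I genes did not move in this way. None of 4 tested was called, *H2-D1* and *H2-K1* had log2 fold changes of -0.28 (SE 0.20, adjusted p = 0.544) and -0.23 (SE 0.20, adjusted p = 0.653), and *B2m*, the light chain, 0.56 (SE 0.23, adjusted p = 0.182).

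The remaining called genes have mixed roles. Higher in CIA mice were *Tspo* of the outer mitochondrial membrane (log2 fold change 1.64, SE 0.32), the calcium-binding *S100a4* (1.76, SE 0.41) and *S100a6* (1.50, SE 0.41), the leukocyte surface peptide *Cd52* (1.43, SE 0.35), the actin-binding thymosin *Tmsb10* (1.17, SE 0.28), *Arhgdib* (1.13, SE 0.30), the immunoglobulin-like receptor *Lilr4b* (1.13, SE 0.26), and the proteasome subunit *Sem1* (0.94, SE 0.21). Lower were *Gm15564* (-1.48, SE 0.36), the C-type lectin *Cd302* (-1.22, SE 0.34), the chromatin remodelling subunit *Baz1a* (-1.19, SE 0.33), the cysteine protease inhibitor *Cst3* (-0.89, SE 0.21), and the LIM domain gene *Crip1* (-0.76, SE 0.21). Their adjusted p ranged from 3.22e-03 for *Tspo* to 0.037 for *Cd302*, and of these 13 only *Tspo* and *Sem1* passed in every fit without 1 mouse. *Gm15564* is annotated as antisense, and whether strand was used in counting is not given in the sources used here, so its reads cannot be told apart from those of a gene on the other strand. *Ear2*, *Ly6c2*, *Ifitm2*, *Ifitm3*, *Ifi27l2a*, *Ifi202b*, *Chil3*, *Wfdc17*, *Ms4a6c*, *Lilr4b*, and the *H2* genes belong to families with near-identical members, so their UMIs may be split among relatives.

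Other gene groups showed few or no called genes. Of 44 cytosolic ribosomal protein genes, 25 oxidative phosphorylation genes, 6 mitochondrially encoded genes, 9 immediate early genes, and 4 heat shock genes none was called, with medians of 0.07, 0.05, -0.26, -0.40, and -0.40. Of these, *Uqcrq*, a subunit of respiratory complex III, came closest to the threshold (0.99, SE 0.30, adjusted p = 0.0586). Among 12 lysosome and cathepsin genes only *Cst3* was called, and the proteases *Ctsb* and *Ctss* had values of 0.32 (SE 0.20, adjusted p = 0.474) and -0.42 (SE 0.18, adjusted p = 0.209). None of 5 oxidative stress genes was called, with peroxiredoxin *Prdx1* at 0.45 (SE 0.22, adjusted p = 0.305). The mitochondrial share of UMIs was 11.8 ± 1.49% in healthy (SD, n = 4) and 11.98 ± 1.84% in CIA mice (SD, n = 6), with p = 0.933 in an exact permutation test. T cell, natural killer cell, fibroblast, and endothelial lists had no gene past the filter, and in macrophages each summed to at most 423 CPM in any mouse.

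**Figure D2:**
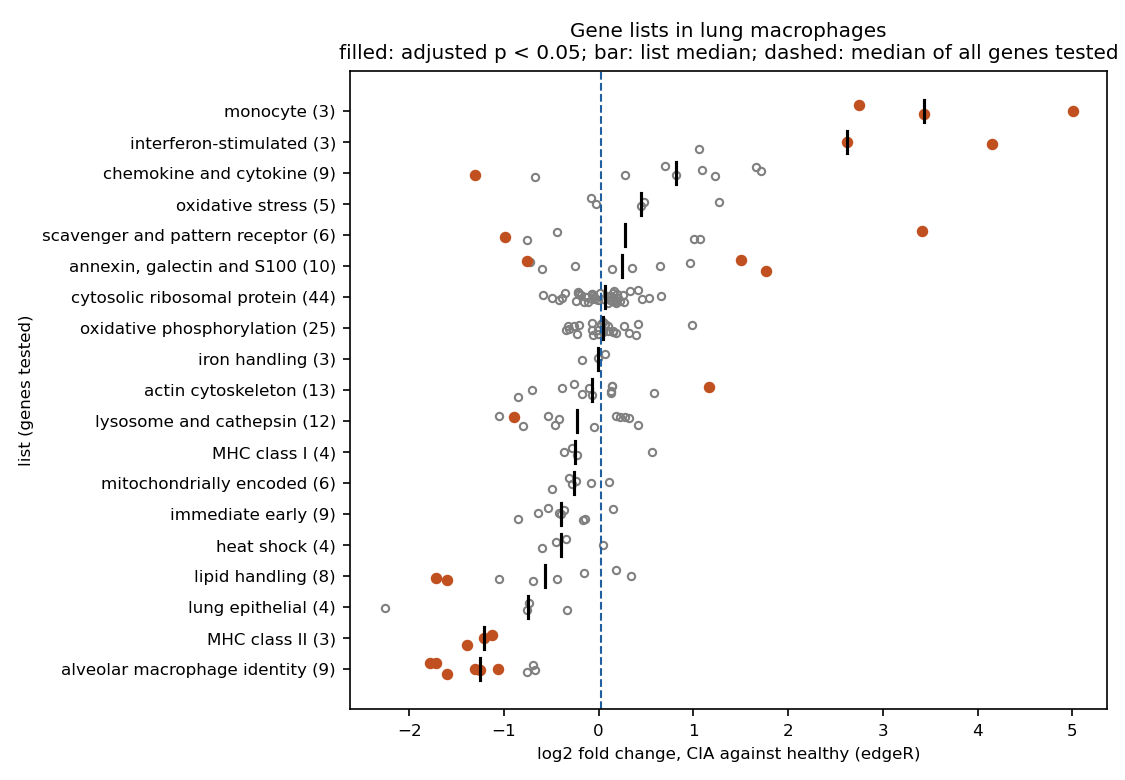
Log2 fold change of CIA against healthy mice (horizontal axis) of each gene tested, by gene list with at least 3 genes tested (vertical axis, number tested in brackets); filled points passed an adjusted p of 0.05, bars are list medians, and the dashed line is the median of all 538 genes. The monocyte list lies to the right of the dashed line, and the MHC class II and alveolar lists lie to the left. The 3 monocyte genes passed the filter on low counts through the CIA mice, which in part sets their side.

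The sums per mouse do not tell a change in each cell from a change in the kinds of cell. The share of cells with a UMI was also taken, at 400 UMIs in each cell. At this depth the share largely follows the mean level, so it does not tell them apart either. *Plac8* was found in 4.72 ± 3.21% of macrophages of healthy mice (SD, n = 4) and 32.0 ± 7.11% of those of CIA mice (SD, n = 6), and *Clec4e* in 2.37 ± 0.49% and 19.4 ± 5.74%. Without thinning these shares were 6.15% and 40.3% for *Plac8* and 4.00% and 26.7% for *Clec4e*. *Ear2* was found in 16.1 ± 3.68% and 4.63 ± 1.31% of cells, and *Lpl* in 22.03 ± 2.58% and 8.55 ± 4.36%. For all 4 genes the shares of the groups did not overlap. Among the 35 lung T cells of CIA mice 1 had a UMI of *Clec4e*, which T cells should lack, a share of 2.32% after thinning, and 0 of 35 had one of *Ear2* or *Lpl*, which allows a share of up to 8.57% of cells with a UMI. *Plac8* was found in 8.20% of the T cells of healthy and 14.2% of those of CIA mice, so that its share in macrophages of healthy mice lay at or below that background. The median depths were 608 UMIs for macrophages and 523 for T cells in healthy mice, and 557 and 531 in CIA mice.

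Cells with and without alveolar genes were then compared within each mouse, after the epithelial cells had been left out. The share of cells with no UMI of the 28 alveolar genes was 6.45% to 23.7% in healthy and 31.0% to 53.8% in CIA mice. In cells without such a UMI the monocyte list summed to 891 to 1239 CPM in healthy and 2590.0 to 5639 CPM in CIA mice. In cells with 2 or more alveolar UMIs, a limit set after the data were seen, it summed to 124 to 818 CPM in healthy and 1314 to 3997 CPM in CIA mice, with the alveolar UMIs taken out of the total. Cells with 2 or more UMIs of the alveolar list thus also had a higher monocyte level in every CIA mouse than in any healthy mouse. The alveolar list includes *Ccl6*, which the paper uses as a monocyte marker. It also includes *Cd9*, which was at 1006 ± 439 CPM in joint macrophages of healthy mice (SD, n = 3). Such UMIs therefore do not show that a cell is an alveolar macrophage. In every mouse except S3 the monocyte level was lower in the cells with alveolar genes. Some of these levels rest on few cells. Without an alveolar UMI H7 had 2 cells and H3 had 9, and S8 had 6 cells with 2 or more. Cells with 2 or more alveolar UMIs were deeper (median 592.5 to 713 against 464.5 to 545 UMIs), and no doublets were removed. The part of RNA shared between cells in these values was not tested.

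**Figure D3:**
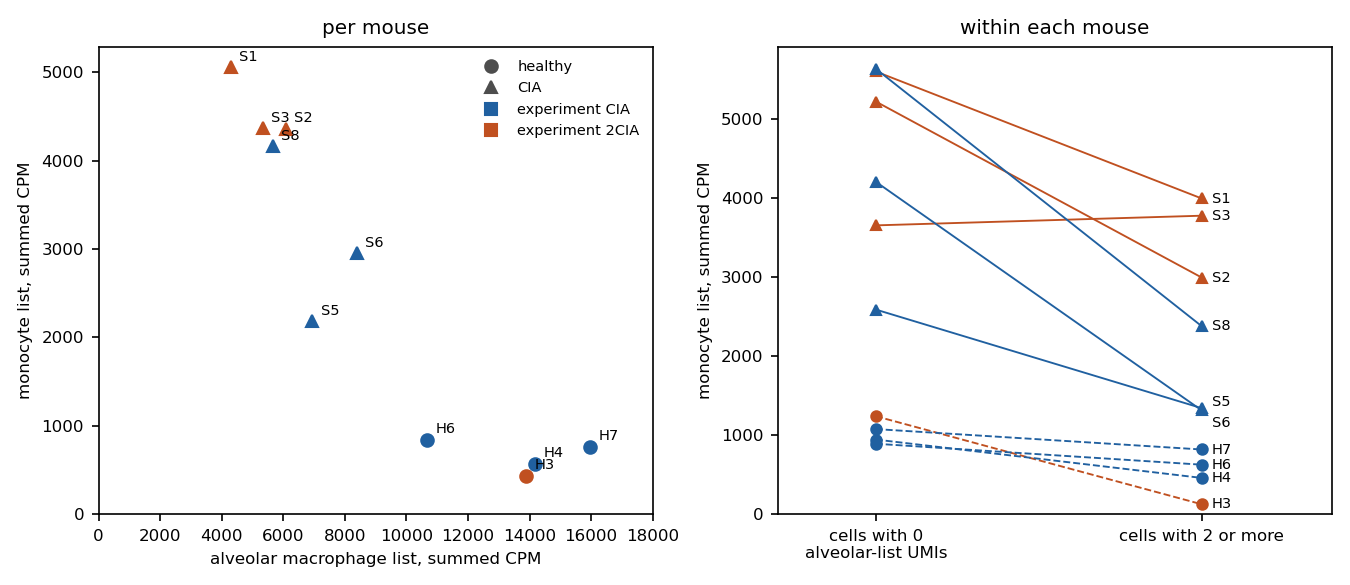
Left, the summed CPM of the monocyte list (vertical axis) against that of the alveolar macrophage list (horizontal axis) in lung macrophages of each mouse without the epithelial cells; right, the summed CPM of the monocyte list in cells with 0 and with 2 or more alveolar-list UMIs, with a line for each mouse. Circles are healthy and triangles CIA mice, coloured by experiment; the healthy mice lie at 435 to 844 CPM of the monocyte list and the CIA mice at 2187 to 5055 CPM.

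Macrophages of the joint and muscle showed which of the changes were found elsewhere in some of the same animals. Joint macrophages were compared over 3 healthy (H3, H4, H7) and 4 CIA mice (S1, S3, S5, S8) with at least 10 cells. Muscle macrophages were compared over 3 (H4, H6, H7) and 4 (S2, S3, S5, S6), so that muscle had no healthy mouse of experiment 2CIA and lacked S1. The change of each organ was set in 1 fit against that of lung, which kept all 10 mice. The organs thus differ in their mice and in the mix of experiments. In joint, 16 of the 35 lung genes were called in that fit, against 6.22% of the 788 genes tested (3.3% higher, 2.92% lower), and 18 of the 20 higher and 9 of the 15 lower genes had the same sign. The sign was the same for 57.2% of all genes, and *Fabp1* had no UMI in joint or muscle macrophages. Among the 16 were *S100a9* and *S100a8*, the latter at 3011 ± 2174 CPM in healthy (SD, n = 3) and 32411 ± 11709 CPM in CIA mice (SD, n = 4). The part of RNA from granulocytes and other cells in the joint values was not tested. *Ly6c2* in joint macrophages rose from 26.8 ± 28.2 CPM (SD, n = 3) to 738 ± 492 CPM (SD, n = 4), a log2 fold change of 4.65 (SE 0.82, adjusted p = 1.23e-03) although the lowest CIA mouse lay at 55.2 CPM and the highest healthy mouse at 56.2 CPM, and *Ifi27l2a* from 119 ± 86.4 to 1718 ± 699 CPM (3.53, SE 0.54, adjusted p = 4.00e-04). *Cd74* in joint fell from 7458 ± 2723 to 1576 ± 863 CPM (-2.14, SE 0.34, adjusted p = 4.00e-04). *Cd9*, of the alveolar list, fell there from 1006 ± 439 to 332 ± 115 CPM (-1.44, SE 0.33, adjusted p = 8.96e-03). *Lpl*, *Chil3*, *Ear2*, and *Spp1* of that list were not called in joint. For none of the 35 genes did the change differ between lung and joint at an adjusted p of 0.05. *Chil3* came close, with a lung minus joint difference of -2.76 (SE 0.73, adjusted p = 0.104), and was at 34.9 ± 30.4 CPM in joint macrophages of healthy mice. Over all genes 1 differed (0.127%), *F13a1*, which is named here after its values were seen. It was at 637 ± 226 CPM in joint macrophages of healthy and 543 ± 292 CPM in those of CIA mice, against nearly none in healthy lung (difference 5.14, SE 1.00, adjusted p = 0.0192). With the mouse as a block, since both organs came from the same animals, 4 genes differed, *F13a1* (5.39, adjusted p = 0.0400), *S100a6* (2.56, adjusted p = 0.0400), *Hp* (-4.41, adjusted p = 0.0400), and *Mgst1* (-3.32, adjusted p = 0.0463), of which *Hp* and *Mgst1* were likewise named after their values were seen. In the fit without the block *F13a1* no longer passed without H3 (adjusted p = 0.121), H4 (0.0922), or S1 (0.0567).

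In muscle, 1 of the 35 genes was called in the fit with lung, *Ifi27l2a*, which rose from 97.8 ± 21.9 CPM (SD, n = 3) to 1488 ± 478 CPM (SD, n = 4) (log2 fold change 3.88, SE 0.59, adjusted p = 8.99e-04) and was the only one of 807 genes called there (0.124%). The change in lung exceeded that in muscle for 4 genes (0.496%), *Ly6c2*, *F13a1*, *Clec4e*, and *S100a8*. *Ly6c2* was at 700.2 ± 262 CPM in muscle macrophages of healthy and 335 ± 152 CPM in those of CIA mice, and the difference between the organs was 5.81 on the log2 scale (SE 0.79, adjusted p = 1.72e-04). The differences were 7.04 for *F13a1* (SE 1.14, adjusted p = 1.18e-03), 3.75 for *Clec4e* (SE 0.76, adjusted p = 0.0145), and 5.21 for *S100a8* (SE 1.15, adjusted p = 0.0332). *S100a8* was at 11034 ± 8453 CPM in muscle macrophages of healthy (SD, n = 3) and 4794 ± 4378 CPM in those of CIA mice (SD, n = 4). The part of granulocyte RNA in its difference was not tested. With the mouse as a block *Clec4e* no longer passed (adjusted p = 0.0920) and *S100a9* did (4.96, adjusted p = 0.0140). Without H4 or H7 there were 2 genes and without H6 or S5 15 genes. MHC class II genes had the opposite sign in muscle, where *H2-Ab1* was at 2234 ± 1371 CPM in healthy and 5118 ± 2943 CPM in CIA mice. The difference of -2.37 (SE 0.57) between lung and muscle did not pass (adjusted p = 0.0580) but did without the epithelial cells (adjusted p = 0.0402). With the mouse as a block it was -2.01 (adjusted p = 0.311).

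**Figure D4:**
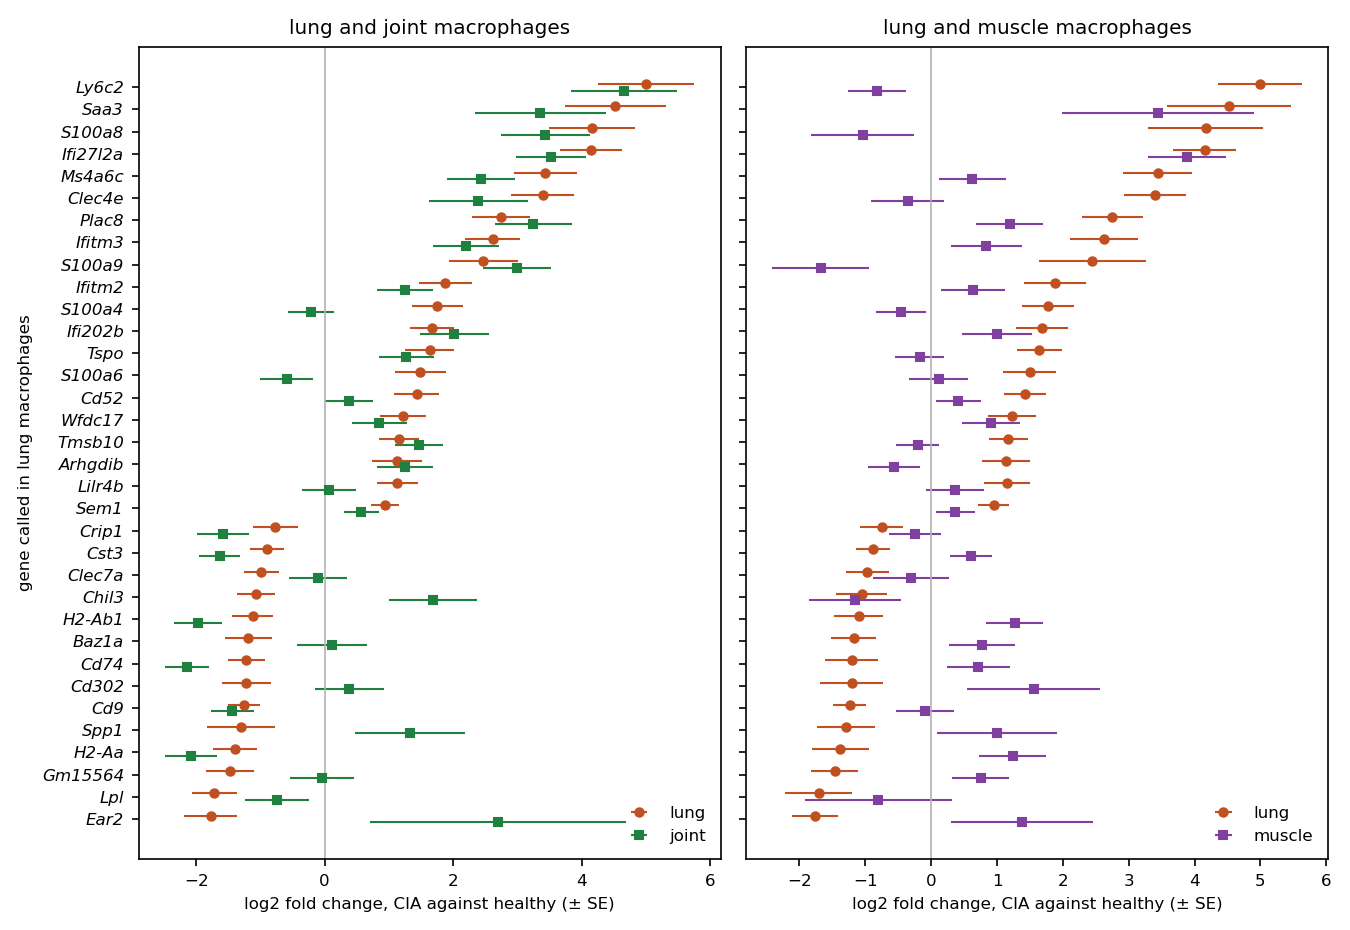
Log2 fold change of CIA against healthy mice with its SE (horizontal axis) for the genes called in lung macrophages (vertical axis), in lung and joint macrophages (left) and in lung and muscle macrophages (right), each pair from 1 fit; *Fabp1*, which has 0 UMIs in the other organs, is left out. *Ly6c2* lies at 4.65 in joint and -0.81 in muscle, beside 4.99 in lung in the pair with muscle.

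Among the CIA mice, those of score 8 were compared with those of lower score, 3 against 3, where the experiment changes with the score. Of 631 genes, 1 differed (0.158%), *Scgb1a1*, the secretoglobin of club cells, at 321 ± 174 CPM at score 8 and 18484 ± 15374 CPM at lower scores (SD, n = 3 each; difference -6.03, SE 0.94, adjusted p = 2.50e-03). Without the epithelial cells none of 521 genes differed by edgeR, and with them 88 had an unadjusted p below 0.05. Of the 20 genes called higher in CIA mice 18 had a fitted difference above 0 at score 8, against 48.2% of all 631 genes, and all 20 had a higher mean CPM, against 60.9%. Among them were *Ifi27l2a* (1630.1 ± 517 and 795 ± 372 CPM, adjusted p = 0.288) and *S100a8* (6583 ± 5107 and 1908 ± 1356 CPM, adjusted p = 0.146). Of the 15 genes called lower, 11 had a fitted difference below 0 and 9 a lower mean CPM at score 8. The 20 and 15 genes were called with these same CIA mice, so these counts are not independent of the call and give no test of the score.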

How the data were processed

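Seq-Well libraries of lung, joint, and muscle were used. The authors mapped the reads to GRCm38 with STAR, counted UMIs with the Drop-seq tools, filtered cells by reads, transcripts, genes, and mitochondrial share, and deposited raw UMI counts for 34586 genes in 13240 cells. Per the labels, bcl2fastq, Picard, and STAR were used, but the builds listed there are GRCh38 and mm9, and this conflict was not settled; coordinates here are from GENCODE and RefSeq for GRCm38. Cell types are the authors' own annotation, taken as deposited, and no doublets were removed here.

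UMIs of labelled macrophages were added up per mouse, for mice with 10 or more such cells. Genes past edgeR's default filter on low counts were tested by quasi-likelihood (edgeR 4.0.16, R 4.3.3, TMM factors, all 10 mice, no covariate), and p was adjusted by Benjamini-Hochberg and called below 0.05. Organs were compared through the interaction of organ and disease, and because joint or muscle came from the same animal as the lung, by the titles, the mouse was also fitted as a block. Each SE was derived from the coefficient and its test. Exact permutation tests over mice used scipy 1.17.1. In simulated counts for CIA against healthy, 68%, 98%, and 100% of 200 genes (of 538) with log2 changes of 1, 2, and 3 were recovered, with at most 4.23% false calls. The spread of a simulated gene was set by its level alone, and a larger share of genes changed than was called in the data. Recovery and false calls may therefore look better there than in the data. DESeq2 1.42.0 was an alternative. Intervals and floors cover counting error only.

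Named are the called genes, the 5 markers of the label, up to 4 of the most abundant tested genes of a list, and called genes of the other comparisons; any other gene was named after its values were seen. The cells and the gene lists were chosen with earlier results of these data known. Some genes counted here are not reported by name.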

Additional observations from a re-analysis of the deposited data

Results flagged for a closer look

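In 9 of 86 groups of 4 or 6 mice, 1 mouse lay far from the others. The limit used flags about 1 in 20 groups of independent, normally distributed values. The levels here include low counts, and some groups share genes, as the granulocyte list does with *S100a8*. The 9 of 86 can therefore not be set against chance. S1 stood above the other CIA mice for *S100a8* (12458 CPM, next 4082 CPM) and for the summed granulocyte list (14986 CPM, next 5486 CPM), and H3 above the other healthy mice for the same list (631 CPM, next 395 CPM). H6 was above the other healthy mice for *Saa3* (59.7 CPM, next 9.63 CPM), and H3 below them for *Tspo* (115 CPM, next 209 CPM). For the antigen presentation gene *Cd74*, H7 was far below the other healthy mice (1368 CPM, next 3163 CPM), and for *Cst3* it was H6 (1850.0 CPM, next 2917 CPM). S8, the CIA mouse with the fewest UMIs, was below the other CIA mice for *H2-Aa* (116 CPM, next 824 CPM) and above them for *Gm15564* (290.0 CPM, next 168 CPM).

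The change with CIA differed between organs for *Ly6c2* (lung minus muscle 5.81 on the log2 scale), *F13a1* (7.04 against muscle and 5.14 against joint), *Clec4e* (3.75), and *S100a8* (5.21 against muscle), by the test of the difference in edgeR. The part of granulocyte RNA in the value of *S100a8* was not tested. In the lung cells not labelled macrophages, which were given above as a background, the granulocyte list summed to 15825 CPM in CIA mice, against 520.0 CPM in healthy mice.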

How the results depend on the processing

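Over the alternatives in which they were tested, the 35 called genes kept their direction in all 737 values and passed the threshold in 563 of them. Leaving out each mouse in turn gave 16 to 40 genes, 16 without H4 and 23 without S1, and 12 of the 35 genes passed in all 10 of these fits, 8 higher (*Clec4e*, *Ifi27l2a*, *S100a8*, *Plac8*, *Ifitm3*, *Ifi202b*, *Tspo*, *Sem1*) and 4 lower (*Cd9*, *Ear2*, *Cd74*, *Lpl*). *Ly6c2*, *Ms4a6c*, and *Saa3* passed in the 6, 6, and 8 fits that tested them and fell below the filter on low counts in the others. Without H4, the deepest healthy mouse, *H2-Aa*, *H2-Ab1*, and *Chil3* lost the threshold. No filter on low counts gave 32 genes, 13 of them among the 35. Experiment CIA alone gave 4 genes, the mean over cells 18, and plain library size 23 higher and 9 lower, with the median of all genes at 0.16 rather than 0.02. The numbers of the titles did not pair healthy and CIA mice (r = -0.17 for number 3 and -0.34 for number 6), and a replicate block on them gave 16 genes (14 higher, 2 lower), with *H2-K1* at 0.087 instead of -0.23. DESeq2 gave 39 genes for the main comparison, 8 for lung minus muscle, and 2 for score 8. Lung minus muscle gave 10 genes without the epithelial cells and 2 to 15 without 1 mouse (2 without H4 or H7, 15 without H6 or S5). Lung minus joint gave 4 genes with the replicate block of mice and 0 to 2 without 1 mouse (0 without H3 or S1, 2 without H4, H6, S5, or S8, and neither of those without H4 was *F13a1*). Score 8 gave 0 genes without the epithelial cells and 1 to 2 without 1 mouse (2 without H4, S2, S3, or S8). The difference in the median UMIs per macrophage was -50.9, was -94.0 for the mean over cells and -41.0 without the epithelial cells, and ran from -67.6 (without H7, p = 0.0476, exact permutation test) to -34.9 without 1 mouse. The difference in the macrophage share ran from 0.03 to 4.78 percentage points. The causes were not tested. A fit of cells without any UMI of the other-cell lists was not run, since 85 of 677 cells were left. The epithelial cell alternatives were chosen after seeing the data. At a median of 583 UMIs per cell most genes could not be tested.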
